A study of Mus musculus with 8 samples.

Results

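Claudins are small membrane proteins that span the membrane several times and polymerise into the strands of the tight junction. Some seal the gap between neighbouring cells, others line pores through it, and each cell type carries its own mixture. In the lung, claudin 18 is known from the alveolar epithelium, claudin 5 from endothelium, claudin 10 from the airway epithelium, and claudins 3, 4 and 7 from most epithelia.

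The 10 claudin genes described here were Cldn1, Cldn2, Cldn3, Cldn4, Cldn5, Cldn6, Cldn7, Cldn10, Cldn18 and Cldn23. They were found by symbol among the 55401 genes of the deposited mouse count table, which holds 34 claudin genes, and all 10 passed the filter on low counts. The libraries were bulk RNA-seq of mouse airway cells taken at day 10 after tamoxifen. The 4 control libraries carried the genotype Scgb1a1cre; Cdh1F/+, with 1 floxed allele of Cdh1, the gene for E-cadherin, and the 4 libraries labelled mutant carried Scgb1a1cre; Cdh1F/F, with 2. Both groups therefore held the Cre, driven from the promoter of the club cell gene Scgb1a1, a floxed Cdh1 allele and tamoxifen. The series' design text asks what Cdh1 loss in club cells does to expression in airway cell types, and describes depletion of immune and endothelial cells, selection on EPCAM and a GFP sort; the sample labels give no sorted fraction, and nothing in them says that libraries came from separate animals. The p-values then measure only the spread between these libraries, which may be technical.

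Libraries held 15111663 to 21673654 counts, so that a gene with no count could still be present at up to 3 counts, which is 0.138 to 0.199 CPM (counts scaled to a common library size) depending on the library. Cdh1 itself, read across the whole gene, was at 383.5 ± 44.7 CPM (SD, n = 4) in controls and 403.4 ± 6.08 in mutant-labelled libraries (edgeR adjusted p = 0.648). Whole-gene counts need not see a deleted part, so this gives no check of the labels. Against the label of airway cells, and against a depletion of endothelial cells, alveolar and endothelial transcripts were abundant: Sftpc of alveolar type II cells averaged 17860 CPM and Pecam1 of endothelium 1173 CPM in controls. Controls 2 and 3 stood apart from controls 1 and 4. A chi-square comparison of their counts gave 4.88 per gene between controls 2 and 3, 20 to 45.6 between the other control pairs, and 6.12 to 12.7 between mutant-labelled libraries. For the claudins and the partner lists, calls that change without one of these pairs are given with and without it. Marker lists, single marker genes and within-library ratios are not given without either pair, so their dependence on the pairs is not shown. In bulk RNA, fewer cells of a type and less RNA per cell cannot be told apart.

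The promoters of 5 members are printed because these genes carry the contrasts that follow: the strongly higher Cldn4 beside its chromosomal neighbour Cldn3, then Cldn7, Cldn2 and the lower Cldn10. Each line is the 250 bases before the first RefSeq start site in GRCm38.p6, read 5′ to 3′ on the gene's strand. Capitals mark matches, on either strand, to one of 4 motifs: TGANTCA, the element bound by AP-1; AACCNGTT, bound by grainyhead-like factors; CATTCC, bound by TEAD factors; and CAGGTG, the E-box bound by Snail and Zeb factors. None of these motifs overlaps another in the printed lines. The windows are chr5:134946935-134947184 on the minus strand for Cldn4 and, on the plus strand, chr5:134985964-134986213 for Cldn3, chr11:69964529-69964778 for Cldn7, chrX:139800558-139800807 for Cldn2 and chr14:118787621-118787870 for Cldn10.
Cldn4: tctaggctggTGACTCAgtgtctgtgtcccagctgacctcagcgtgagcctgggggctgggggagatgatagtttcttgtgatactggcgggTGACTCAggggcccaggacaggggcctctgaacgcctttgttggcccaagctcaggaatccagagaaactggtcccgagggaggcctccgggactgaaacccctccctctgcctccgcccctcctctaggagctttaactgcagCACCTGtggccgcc
Cldn3: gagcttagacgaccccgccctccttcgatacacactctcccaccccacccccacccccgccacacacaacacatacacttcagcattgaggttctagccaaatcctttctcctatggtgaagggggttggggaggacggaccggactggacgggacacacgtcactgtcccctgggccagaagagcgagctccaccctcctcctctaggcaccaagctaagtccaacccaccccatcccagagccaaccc
Cldn7: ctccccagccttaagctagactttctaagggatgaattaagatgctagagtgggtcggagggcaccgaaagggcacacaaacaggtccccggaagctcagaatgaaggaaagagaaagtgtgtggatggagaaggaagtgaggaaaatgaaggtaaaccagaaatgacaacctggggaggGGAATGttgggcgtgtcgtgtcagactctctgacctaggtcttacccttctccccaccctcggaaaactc
Cldn2: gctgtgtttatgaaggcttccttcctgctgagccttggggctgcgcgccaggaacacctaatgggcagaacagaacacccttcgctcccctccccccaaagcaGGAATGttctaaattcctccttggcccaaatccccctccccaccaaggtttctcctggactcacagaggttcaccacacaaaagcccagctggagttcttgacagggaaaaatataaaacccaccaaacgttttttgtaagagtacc
Cldn10: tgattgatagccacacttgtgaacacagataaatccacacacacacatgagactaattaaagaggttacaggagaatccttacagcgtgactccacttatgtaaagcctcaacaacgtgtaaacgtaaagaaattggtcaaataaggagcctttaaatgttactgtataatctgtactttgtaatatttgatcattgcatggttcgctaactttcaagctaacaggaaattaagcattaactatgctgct

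The Cldn4 window held TGANTCA at 240 and at 158 bases before the start, and CAGGTG, on the other strand, at 14 bases. Among 32851 RefSeq windows of the same length, 6.75% held TGANTCA and 0.338% held it 2 or more times. The Cldn3 window held none of the 4 motifs. The 2 genes point away from each other, with 39279 bases between their starts. CATTCC, present in 12.6% of all windows, lay 70 bases before the first Cldn7 start and 147 bases before the Cldn2 start. The second Cldn7 start, not printed, had CAGGTG at 97 and 57 bases, a motif in 17.2% of windows. Cldn6 had CAGGTG at 93 bases, and Cldn5 had AACCNGTT, in 1.79% of windows, at 20 bases. The windows of Cldn10, Cldn18 and Cldn1 held none of them. The table matched 9 of the 10 genes, Cldn23 being the one not matched, and 3 of them (Cldn7, Cldn10 and Cldn18) have 2 start sites, which the gene-level counts do not separate. A match describes letters in a window and does not show that a factor binds there.

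Cldn4, Cldn2, Cldn6, Cldn7 and Cldn23 were higher in the mutant-labelled libraries and Cldn10 was lower. Cldn1, Cldn3, Cldn18 and Cldn5 did not pass the test. So 5 of 10 members were called higher and 1 lower (edgeR's quasi-likelihood test, Benjamini-Hochberg adjusted over 16964 genes, threshold 0.05), where 7.81% of all genes tested were called, 5.45% higher and 2.36% lower. The median log2 fold change of the 10 was 0.51, against -0.006 for all genes tested. In 7 members the library ranges of the groups did not overlap, 5 upward and 2 downward, where 16.8% of genes tested had no overlap, 9.75% upward and 7.07% downward. Cldn6, with at most 6 counts in any control, passed the filter only through the mutant-labelled libraries. It is counted among the 5 called higher and the 5 upward, so those counts are in part set by the filter. Without control 1 the number called lower was 3, and without controls 1 and 4 it was 4. Without controls 2 and 3 it was 1. Over all genes tested, these fits called 1117 of 17129, 3338 of 17418 and 223 of 17657 lower, in that order.

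**Figure D1:**
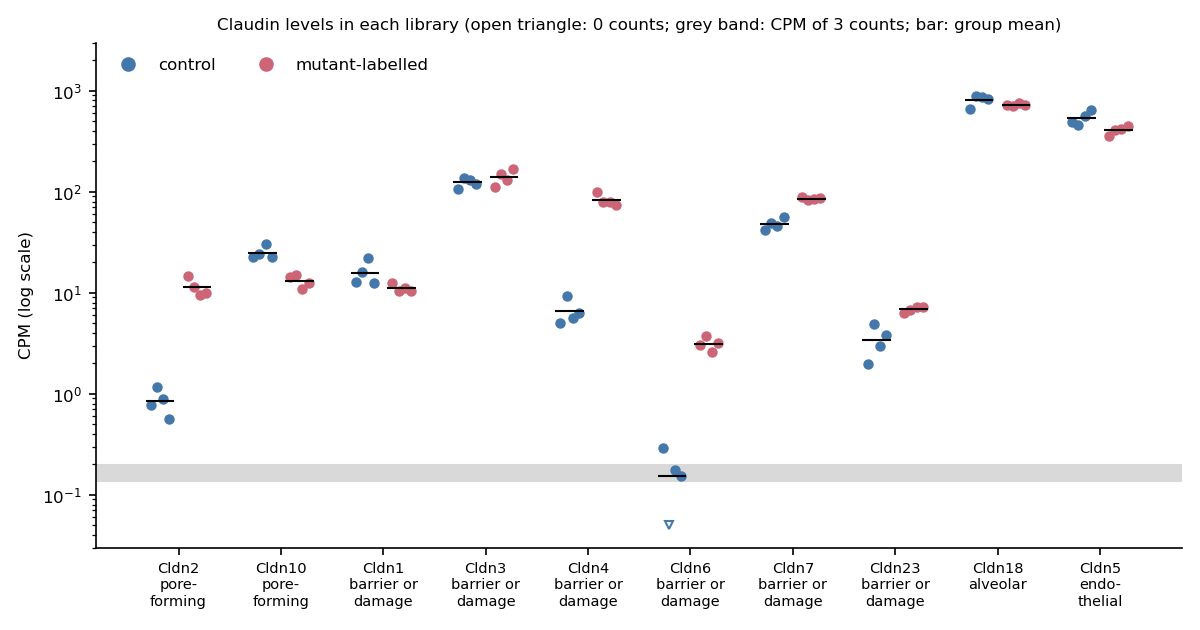
CPM, on a log axis, of the 10 claudins in each of the 8 libraries, 1 point a library, with group means; the open triangle is a library with 0 counts and the grey band the CPM of 3 counts. Cldn4, Cldn2 and Cldn6 separate most widely, with every mutant-labelled library above every control, while Cldn3 and Cldn18 overlap.

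Of the pore-forming claudins, Cldn2 builds a channel for small cations and water and is typical of leaky epithelia. It read 0.771, 1.17, 0.882 and 0.564 CPM in controls 1 to 4, and 14.7, 11.4, 9.41 and 10.05 CPM in mutant-labelled libraries 1 to 4. The lowest mutant-labelled library was well above the highest control, and the controls rested on 11 to 17 counts a library. The difference was 13.6-fold (95% interval 9.39 to 19.7; log2 fold change 3.77 ± 0.24 SE, edgeR adjusted p = 2.7e-05). The gene is ENSMUSG00000047230, at X:139800828-139811386 in GRCm38.

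Cldn10 makes ion-selective pores, for anions or cations depending on the isoform. It read 22.5, 24.4, 30.2 and 22.8 CPM in controls and 14.3, 14.9, 10.9 and 12.5 CPM in mutant-labelled libraries, again without overlap. It fell 1.90-fold (log2 fold change -0.92 ± 0.13 SE, edgeR adjusted p = 0.00299), opposite in direction to the other pore-forming gene, Cldn2. The gene lies at 14:118787908-118875489, and its isoforms were not separated by the counts. Club cell markers were lower in the same libraries: 6 of 10 were called lower and 1 higher, beside 2.36% and 5.45% of all genes tested. Their median log2 fold change was -1.06, beside -0.92 for Cldn10. Their summed level was 26470 to 29230 CPM in controls and 9648 to 12010 in mutant-labelled libraries. Their part in the Cldn10 result was not tested.

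Set against Scgb1a1 within a library, Cldn10 was higher in the mutant-labelled libraries. The log2 ratio of Cldn10 to Scgb1a1 was -9.29, -9.04, -8.77 and -9.21 in controls and -8.27, -8.20, -8.43 and -8.38 in mutant-labelled libraries. The ratio was 1.69-fold higher without overlap (exact permutation p = 0.0286, the smallest that 70 arrangements give; adjusted over 7 ratios, 0.0667). Scgb1a1, the secretoglobin that defines club cells, was itself 3.21-fold lower, from 13400 ± 554 to 4177 ± 308 CPM (SD, n = 4; edgeR adjusted p = 1.35e-05); Cldn10 fell 1.90-fold. With Cyp2f2, a club cell cytochrome P450, as the reference, the ratio was 1.88-fold higher (exact permutation p = 0.0286). Both references fell further (log2 fold change -1.68 and -1.83) than the median club marker (-1.06), so these ratios do not describe the club list as a whole.

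Among the claudins linked to barrier formation and epithelial damage, Cldn4 changed most in CPM. Cldn4 is a sealing claudin that limits sodium passage and is known to rise in injured alveolar epithelium. Controls read 5.01, 9.23, 5.58 and 6.30 CPM and mutant-labelled libraries 98.9, 78.5, 79.6 and 74.4 CPM. Every mutant-labelled library was several-fold above the highest control, control 2. The difference was 12.8-fold (95% interval 9.61 to 17.0; log2 fold change 3.68 ± 0.18 SE, edgeR adjusted p = 8.01e-06).

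Cldn3, the neighbour of Cldn4 on chromosome 5, did not follow it. It read 106.5, 137.1, 131.0 and 119.0 CPM in controls and 110.5, 149.9, 132.1 and 168.0 CPM in mutant-labelled libraries, with wide overlap. The ratio of means was 1.14 (95% interval 0.928 to 1.39, edgeR adjusted p = 0.409); the interval ends far short of the Cldn4 fold change. Within a library, the log2 ratio of Cldn3 to Cldn4 was 4.41, 3.89, 4.55 and 4.24 in controls and 0.16, 0.93, 0.73 and 1.18 in mutant-labelled libraries. That ratio was 11.5-fold lower, with no overlap (exact permutation p = 0.0286; adjusted over 7 ratios, 0.0667). Cldn4 lies at 5:134945119-134946934 on the minus strand and Cldn3 at 5:134986214-134987472 on the plus strand. Counting did not use strand, and 40 exon bases of Cldn3 (3.18% of its length) are shared with the antisense gene Wbscr25; Cldn4 shares none.

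Cldn7, which forms a complex with EPCAM at the sides of epithelial cells, read 41.5, 48.8, 45.4 and 55.9 CPM in controls and 87.9, 83.5, 83.8 and 87.0 CPM in mutant-labelled libraries. The mutant-labelled libraries lay close together and above every control. It was 1.79-fold higher (95% interval 1.55 to 2.06; edgeR adjusted p = 0.000642). Epcam rose too, 1.53-fold, from 67.1 ± 6.91 to 102.7 ± 6.79 CPM (SD, n = 4; edgeR adjusted p = 0.00299). Relative to Epcam the groups of Cldn7 overlapped, with a log2 difference of 0.23 (exact permutation p = 0.0571; adjusted, 0.08), and with every library scaled to Epcam Cldn7 lost its call (edgeR adjusted p = 0.073). That scaling moves the median of all genes to -0.626. Relative to Cdh1 the Cldn7 groups did not overlap, with a log2 difference of 0.77 (exact permutation p = 0.0286, adjusted 0.05). Cdh1 is the floxed gene by which the groups differ, so it is not a reference independent of genotype.

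Cldn4 was separated with either reference, without overlap. It was 8.45-fold higher relative to Epcam and 12.3-fold relative to Cdh1 (exact permutation p = 0.0286 for each, adjusted 0.0667 and 0.05). The Cdh1 ratios carry the limit just given, Cdh1 being the floxed gene. Cldn3 gave a log2 difference of -0.44 relative to Epcam and 0.09 relative to Cdh1, with overlap in both, so its sign depends on the reference. Of the 10 epithelial markers, 7 were called higher and 0 lower, and their sum was 1331 to 1749 CPM in controls and 2261 to 2614 in mutant-labelled libraries. Goblet cell markers, 7 of 8 called higher, summed to 286.5 to 507.3 CPM in controls and 1309 to 1883 in mutant-labelled libraries. Ciliated cell markers, 6 of 10 called higher, summed to 642.8 to 816.9 and 834.6 to 1075 CPM. Over all genes tested, 5.45% were called higher and 2.36% lower. No marker of these lists was at 0 in every library. The part of these lists in the higher claudins was not tested.

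Cldn6, a claudin of embryonic epithelia, was close to the detection limit in controls. It passed the filter on low counts only through the mutant-labelled libraries, where it was high. It had 6, 0, 3 and 3 counts in controls and 53, 68, 46 and 71 counts in mutant-labelled libraries. In CPM these were 0.289, 0, 0.176 and 0.154 against 3.05, 3.71, 2.58 and 3.22, again without overlap. The summed counts, 12 against 238, give a depth-scaled ratio of 18.8 (exact 95% interval 10.6 to 37.0, for counting error only). The edgeR adjusted p was 0.000328, and the gene, at 17:23679249-23682446, ends 137 bases from Cldn9, which did not pass the filter.

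Cldn23, a claudin of barrier epithelia, was higher by about as much as Cldn7 but from few counts. Controls read 1.98, 4.96, 3.0 and 3.79 CPM and mutant-labelled libraries 6.33, 6.71, 7.23 and 7.20 CPM. The groups did not overlap, and controls were the more scattered. It was 2.02-fold higher (95% interval 1.39 to 2.94; edgeR adjusted p = 0.0338). The call was lost without control 3 (adjusted p = 0.082) and without any of the mutant-labelled libraries 1 to 4 (adjusted p = 0.080, 0.083, 0.082 and 0.087 in that order), while the log2 fold change stayed between 0.96 and 1.05 in these 5 fits. Dropping control 1 together with mutant-labelled library 4 gave 0.79 (adjusted p = 0.051). Scaled to Epcam, the log2 fold change was 0.43 (adjusted p = 0.10), which also lost the call.

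Cldn1, the sealing claudin best known from the epidermis, read 12.7, 15.9, 22.2 and 12.4 CPM in controls and 12.6, 10.4, 11.2 and 10.3 CPM in mutant-labelled libraries. The groups overlapped, and controls 2 and 3 held the 2 highest values. The log2 fold change was -0.51 ± 0.19 SE (edgeR adjusted p = 0.126). Without controls 1 and 4 it was -0.79 with an adjusted p of 0.00145, and without controls 2 and 3 it was -0.17 with an adjusted p of 0.507. Its value therefore differed with the pair of controls used.

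**Figure D2:**
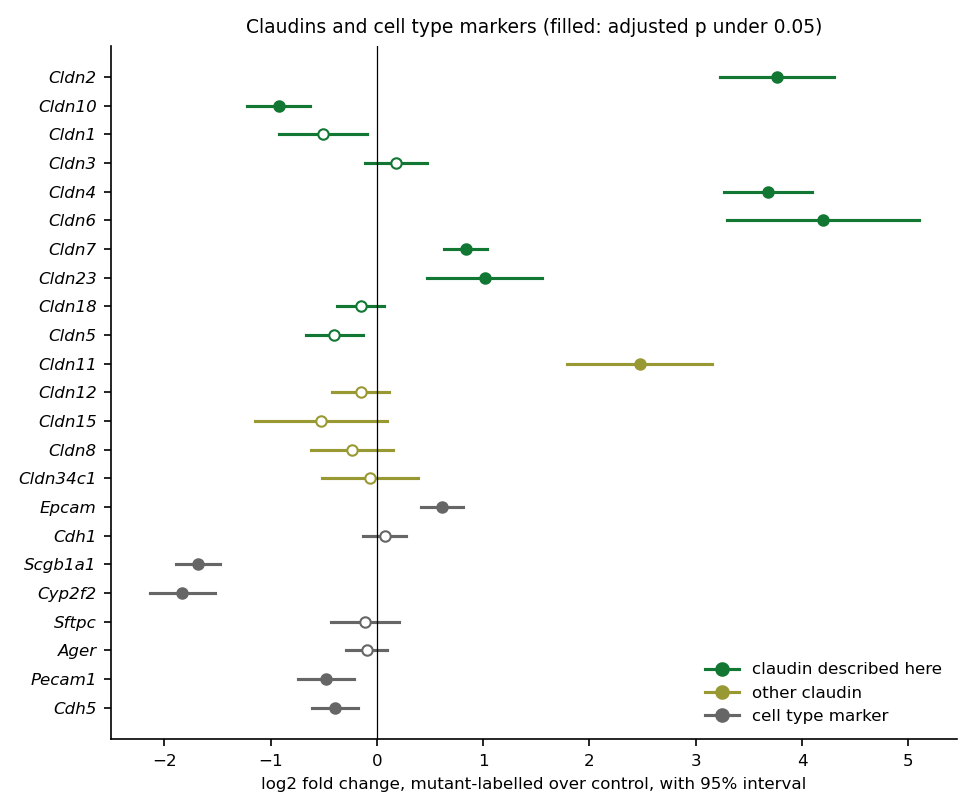
Log2 fold change, mutant-labelled over control, with 95% intervals from the edgeR fit, for the 10 claudins and the 5 other claudins that passed the filter. The intervals of Cldn6, Cldn2 and Cldn4 lie farthest right, and those of Cldn10, Cldn1 and Cldn5 lie left of 0, of which only Cldn10 passed the adjusted threshold.

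Cldn18, the main claudin of alveolar epithelium, read 665.8, 883.8, 871.2 and 819.9 CPM in controls and 726.5, 709.0, 749.9 and 726.1 CPM in mutant-labelled libraries. The mutant-labelled libraries fell within the range of the controls, of which control 1 was the lowest. The ratio was 0.899 (95% interval 0.773 to 1.05, edgeR adjusted p = 0.350). It passed the test without control 1 (log2 fold change -0.24, adjusted p = 0.046) and without controls 1 and 4 (-0.27, adjusted p = 0.00578), while without controls 2 and 3 it was -0.03. Sftpc and Ager, markers of alveolar type II and type I cells, had adjusted p of 0.659 and 0.514. Relative to Sftpc, Cldn18 differed by -0.04 on the log2 scale, with overlap (exact permutation p = 0.7143), and relative to Ager by -0.05 (exact permutation p = 0.5714). The summed alveolar type II markers were 28720 to 40540 CPM in controls and 31210 to 39990 in mutant-labelled libraries, and type I markers 8477 to 10680 and 8283 to 8381.

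Cldn5, the barrier claudin of endothelium, read 487.9, 455.1, 559.6 and 646.4 CPM in controls and 358.7, 406.1, 413.0 and 450.9 CPM in mutant-labelled libraries. No library overlapped, but control 2 and mutant-labelled library 4 lay within a few CPM of each other. The level was 1.32-fold lower in the mutant-labelled libraries (ratio 0.758, 95% interval 0.629 to 0.913) and missed the threshold (edgeR adjusted p = 0.074). It passed in 7 alternative settings that keep group as the only term: without control 1 (adjusted p = 0.044), without controls 1 and 4 (0.032), with DESeq2 (0.018), with no filter (0.040), with quality weights (0.027), with a GC offset (log2 fold change -0.49, adjusted p = 0.017), and scaled to Epcam (0.000117). Without controls 2 and 3 the adjusted p was 0.070. The endothelial markers Pecam1 and Cdh5 fell 1.39-fold and 1.31-fold (edgeR adjusted p = 0.0369 and 0.0355). Within a library Cldn5 differed by 0.08 on the log2 scale relative to Pecam1, with overlap (exact permutation p = 0.7714), and by 0.001 relative to Cdh5 (exact permutation p = 1.0). Of 12 endothelial markers 5 were called lower and 0 higher, beside 2.36% and 5.45% of all genes tested. Their sum was 5547 to 7336 CPM in controls and 4618 to 5127 in mutant-labelled libraries.

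**Figure D3:**
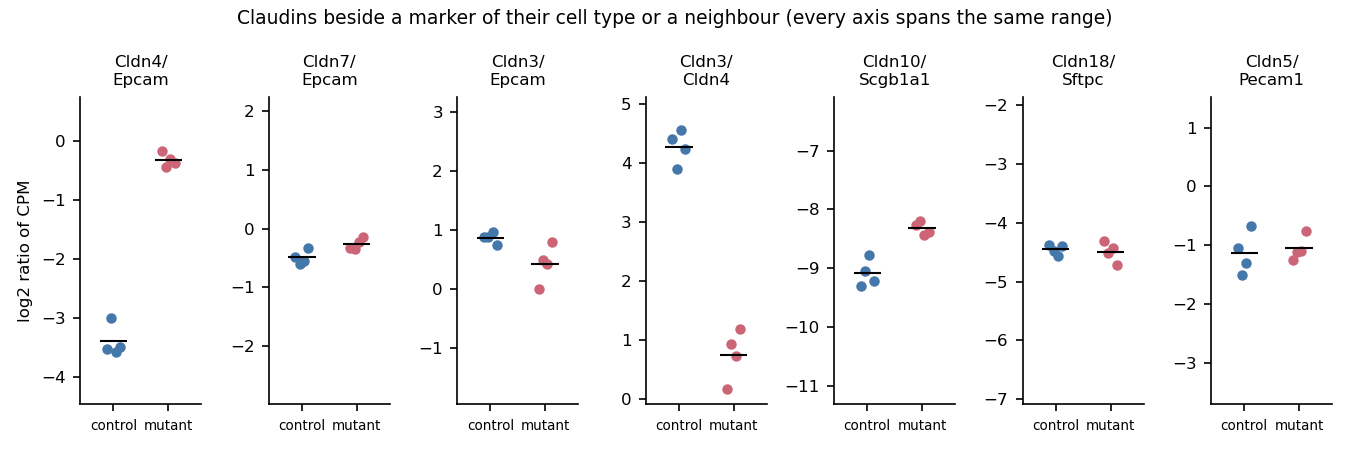
Log2 ratio of a claudin to a marker or neighbour gene within each library, 1 point a library, for the 7 ratios. The control and mutant-labelled libraries do not overlap for Cldn4 to Epcam, Cldn3 to Cldn4 and Cldn10 to Scgb1a1, and overlap for the other 4.

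None of the 7 ratios passed the threshold after adjustment (smallest adjusted p 0.0667, exact permutation test), and 4 against 4 libraries cannot give an unadjusted exact p below 0.0286.

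Levels of different genes were compared per length, as TPM, which divides each count by the exon length and brings every library to 1 common sum. No TMM scaling was applied to TPM, so group differences in it need not match those in CPM. Cldn18 averaged 544.1 TPM in controls and 533.0 in mutant-labelled libraries, but 810.2 and 727.9 in CPM. In controls Cldn5 was highest at 1138 ± 182 TPM (SD, n = 4), then Cldn18 at 544.1 ± 53.8, Cldn3 at 293.5 ± 24.8 and Cldn7 at 73.8 ± 9.50. Neighbours among these 4 did not overlap over libraries, nor did Cldn7 and Cldn10. Below them, Cldn10 (28.8 ± 3.22), Cldn12, Cldn15, Cldn4 (10.8 ± 2.99), Cldn1 (9.73 ± 2.50), Cldn23 (5.55 ± 1.99) and Cldn8 formed a run in which each overlapped with the next. Cldn8 did not overlap with Cldn34c1 below it. Cldn34c1, Cldn2 (0.762 ± 0.218), Cldn11 and Cldn6 (0.273 ± 0.214) came last, again as a run of overlapping neighbours.

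In the mutant-labelled libraries the top 3 kept their order, with Cldn5 at 937.7 ± 83.5 TPM, Cldn18 at 533.0 ± 21.6 and Cldn3 at 362.5 ± 59.6 (SD, n = 4). Cldn4 went from rank 8 to rank 4 at 148.9 ± 20.3 TPM, and overlapped with Cldn7 at 143.3 ± 3.75. Cldn2 went from rank 13 to 10 at 11.2 ± 2.31 TPM, where it overlapped with Cldn23 at 12.1 ± 0.839, while Cldn10 went from 5 to 8 at 16.5 ± 2.17. Cldn6, at 5.94 ± 0.797 TPM, overlapped with Cldn1 at 7.49 ± 0.758.

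The summed level of all claudins was 2165 ± 201 TPM in controls and 2235 ± 117 in mutant-labelled libraries (SD, n = 4), so on this scale, without TMM, the groups differed by less than their spread. Its composition differed. Cldn5 and Cldn18 together made up 77.6% ± 2.30 of it in controls and 65.8% ± 1.07 in mutant-labelled libraries. Most of that difference lay in Cldn5, which averaged 52.4% in controls and 41.9% in mutant-labelled libraries, without overlap. Cldn18 averaged 25.2% and 23.9%, with overlap between groups. The other claudins together summed to 482.8 ± 43.2 TPM in controls and 763.9 ± 38.1 in mutant-labelled libraries, without overlap between groups. Cldn4 held 0.438%, 0.730%, 0.402% and 0.434% of the sum in controls and 8.54%, 6.30%, 6.42% and 5.58% in mutant-labelled libraries. Cldn7 averaged 3.40% and 6.43%, Cldn10 1.34% and 0.744%, and Cldn2 0.0358% and 0.505%. Without dividing by length, Cldn18 held 49.6% of the claudin counts in controls and Cldn5 32.9%, so the order of these genes rests on the length, while Cldn4 averaged 0.40% and 5.38%.

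**Figure D4:**
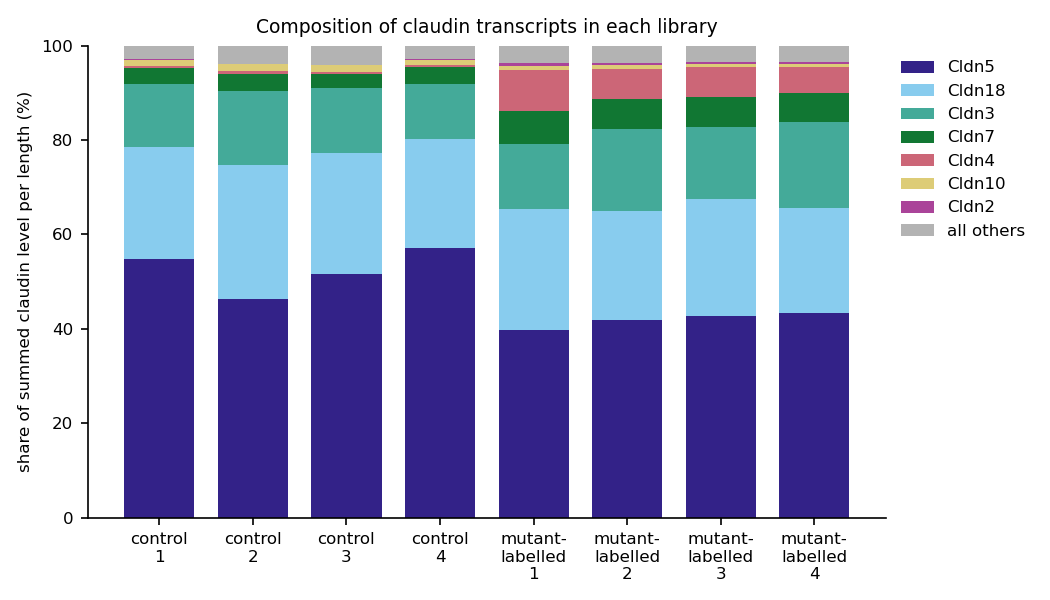
Share of the summed claudin TPM, in percent, taken by each claudin in each of the 8 libraries, as stacked bars from 0. The Cldn4 and Cldn7 segments are taller in the 4 mutant-labelled libraries, and the Cldn5 segment is shorter.

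Of the 24 other claudin genes in the table, 5 passed the filter, 15 had 0 counts in every library, and 4 had at most 15 counts in all. Cldn11, the claudin of myelin and of the testis barrier, was the only one of the 5 called. It went from 0.342 ± 0.102 to 1.95 ± 0.540 CPM (SD, n = 4), 5.55-fold higher (95% interval 3.46 to 8.88, edgeR adjusted p = 0.00125). Controls 1 to 4 held only 10, 4, 6 and 5 counts of it, so it passed the filter only through the mutant-labelled libraries. Cldn12 averaged 38.7 and 34.7 CPM, Cldn15, a cation pore of the intestine, 18.3 and 12.6, Cldn8 3.68 and 3.13, and Cldn34c1 2.16 and 2.06, with edgeR adjusted p of 0.457, 0.270, 0.422 and 0.879. Without controls 1 and 4, Cldn15 and Cldn12 were called lower (log2 fold change -0.88 and -0.36). With controls 2 and 3 dropped they were at -0.07 and 0.08 (edgeR adjusted p = 0.925 and 0.662). Without control 1 alone, Cldn15 was called lower too (-0.76, edgeR adjusted p = 0.0108), control 1 being its lowest library at 8.58 CPM.

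The 28 tight junction partners tested were scaffold, adhesion, polarity and other junction-linked genes, with a median log2 fold change of 0.026. Of them, 3 were called higher and 0 lower, beside 5.45% and 2.36% of all genes tested. These were Tjp3, a scaffold that binds the tails of claudins (22.5 to 42.0 CPM, 1.87-fold, edgeR adjusted p = 0.00125), Lsr, which recruits proteins to tricellular contacts (1.37-fold, adjusted p = 0.0156), and Crb3, an apical polarity protein (1.30-fold, adjusted p = 0.0176). Esam, an endothelial junction protein, had a ratio of 0.822 and an adjusted p of 0.0673. Leaving out single libraries gave 2 to 5 called higher and 0 to 5 called lower, the 5 and 5 both without control 1. Without controls 1 and 4 the counts were 7 higher and 9 lower, where all genes gave 3750 and 3338 of 17418. Without controls 2 and 3 they were 4 and 0, where all genes gave 628 and 223 of 17657.

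Of 11 membrane proteins and proteases linked to claudins, 5 were called higher and 0 lower, beside 5.45% and 2.36% of all genes tested. Their median log2 fold change was 0.241, against -0.006 for all genes tested. St14, the serine protease matriptase, was 1.83-fold higher (67.2 ± 3.68 to 123.3 ± 6.35 CPM, SD, n = 4; edgeR adjusted p = 8.81e-05). Spint1, one of its inhibitors, was 1.33-fold higher (edgeR adjusted p = 0.00876), and Spint2, another, 1.29-fold (0.0327). Epcam, also among the 5, is given above. Prss8, another membrane-anchored protease, had a ratio of 0.754 (edgeR adjusted p = 0.0636), and was therefore not called. Without control 1, 2 of the 11 were called lower. With controls 1 and 4 dropped, 7 were called higher and 3 lower, where all genes gave 3750 and 3338 of 17418. With controls 2 and 3 dropped the counts were 4 and 0, where all genes gave 628 and 223 of 17657.

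Of 22 transcription factors of epithelial junction genes tested, from 27 listed, 4 were called higher and 2 lower, beside 5.45% and 2.36% of all genes tested. Elf3, an epithelial ETS factor, was 2.79-fold higher (25.5 ± 2.99 to 71.0 ± 6.79 CPM, SD, n = 4; edgeR adjusted p = 4.9e-05). Grhl3, of the grainyhead-like family, was 2.6-fold higher (adjusted p = 0.0216), while its relative Grhl1 was 1.51-fold lower (adjusted p = 0.0406). Hnf4a, a nuclear receptor of endodermal epithelia, had 3 counts over the 4 controls and 132 over the mutant-labelled libraries, a depth-scaled ratio of 41.8 (exact 95% interval 14 to 205, counting error only). It is among the 4 called higher, but passed the filter only through the mutant-labelled libraries. Zeb1, a repressor of epithelial genes, was 1.31-fold lower (adjusted p = 0.0405). Leaving out single libraries gave 2 to 6 called higher and 0 to 2 called lower. The count was 6 higher when control 4 was dropped, and 2 higher when mutant-labelled library 1, 2 or 4 was. With controls 1 and 4 dropped the counts were 7 higher and 3 lower, where all genes gave 3750 and 3338 of 17418. With controls 2 and 3 dropped they were 2 and 0, where all genes gave 628 and 223 of 17657. None of the 22 were called lower once control 2, control 3 or mutant-labelled library 1, 2 or 3 was dropped.

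The genes whose centred log2 CPM profile over the 8 libraries lay nearest to a claudin are given as a description, since the group difference dominates such a distance. Nearest to Cldn2 was Fgl1 (root mean square distance 0.190), followed by Pdyn, Clu and Retnla (up to 0.346). Nearest to Cldn4 was also Fgl1 (0.207), followed by Clu, Pdyn and Mcidas (up to 0.360), so 3 of the 4 nearest genes were shared. Clu, the secreted chaperone clusterin, averaged 300.2 and 3100.0 CPM, whereas Fgl1 and Pdyn averaged 0.20 and 0.197 CPM in controls, near the detection limit. Cldn7 lay nearest to Bpifb5 (0.0521) and then to St14, the matriptase gene, Fam84a and Tcp11. Cldn10 lay nearest to Myl4 (0.125) and Mybphl, both muscle sarcomere genes, then Selenbp2 and Galnt13. Cldn18 lay nearest to Tmem175 (0.0316), Gnl3l, Smarcal1 and Cdipt. Cldn5 lay nearest to Plvap, an endothelial gene (0.0802), then Evc, Mill2 and Pde8b.

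**Figure D5:**
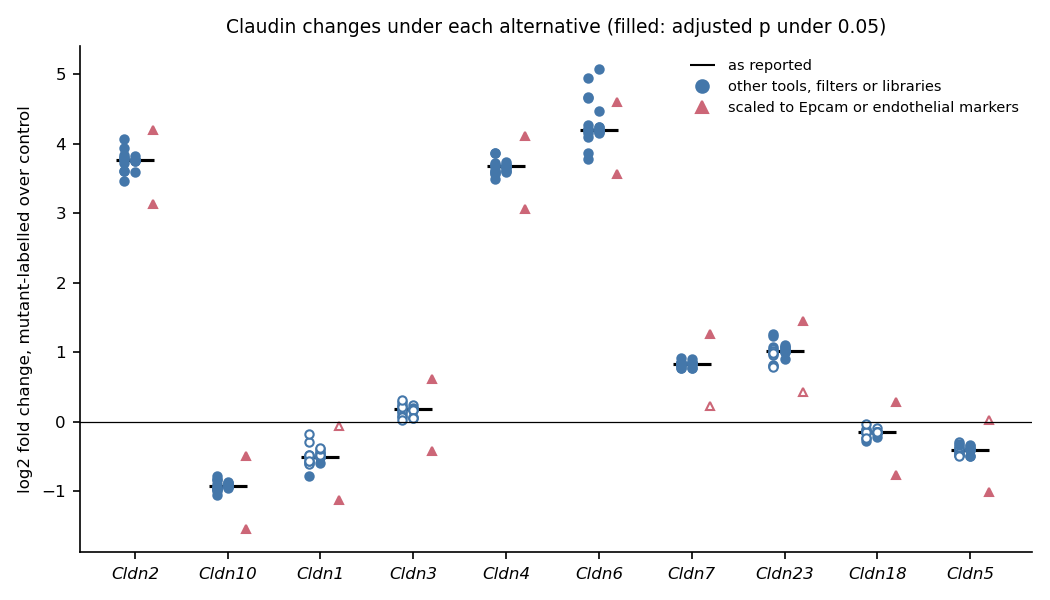
Log2 fold change, mutant-labelled over control, of each of the 10 claudins under the edgeR fit and the 23 alternative settings, with filled points where the call passed. Cldn2, Cldn4, Cldn6 and Cldn10 keep their call in all 23, and the points of Cldn18, Cldn5 and Cldn3 cross 0 only when libraries are scaled to Epcam or to endothelial markers.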

How the data were processed

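The deposited table holds whole-number counts of read pairs per gene. Per the file headers, the authors aligned with STAR and counted with featureCounts 1.6.2 against GENCODE M25 (GRCm38), without strand and without multi-mapping reads. Of the 2 library kits in the labels, one keeps strand and one does not. The gene identifiers were matched to symbols through GENCODE M21 (99.53% matched).

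Counts of all genes were filtered with filterByExpr (minimum count 10, total 15), scaled by TMM and tested with the edgeR 4.0.16 quasi-likelihood test (R 4.3.3), robust fit, group as the only term, Benjamini-Hochberg over 16964 genes. CPM used TMM-scaled library sizes. Ratios were tested with two-sided exact permutation tests over 70 arrangements. Profiles used a prior count of 2 and genes with an average log2 CPM of at least 1. In simulated counts of 16759 genes, 34.3%, 77.6% and 95.5% of genes changed by 1.5, 2 and 4-fold were recovered, and 4.2% of calls fell on unchanged genes. The simulation drew libraries independently, without the split between the controls, and changed none of the lowest-expressed genes. These rates therefore need not hold for the real libraries.

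The members and lists were chosen with earlier results of these data known, so no p-value was adjusted over a list alone. Named were all 10 members, other claudins past the filter, up to 4 genes per partner list by adjusted p plus those a count needs, the 4 nearest profiles and the reference markers; some list genes that the counts include are not reported here. Alternatives covered scaling, filters, DESeq2 1.42.0, limma-voom (limma 3.58.1), GC content, a replicate block and left-out libraries. Of all genes tested, 5.45% were called higher and 2.36% lower. The calls in the other marker lists were: basal 0 of 5 called, neuroendocrine 1 of 4 higher, fibroblast and smooth muscle 1 of 10 higher, mesothelial 0 of 5, immune 1 of 12 higher, alveolar type II 1 of 10 higher and alveolar type I 1 of 10 lower.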

Additional observations from a re-analysis of the deposited data

Results flagged for a closer look

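In 30 groups of 4 libraries, the 15 detected claudins in each of the 2 genotypes, 0 held a library that stood apart from the other 3 by Dixon's test at the 95% level, where chance alone gives about 1 in 20. Dixon's test looks for 1 library apart, so it is no check on controls 2 and 3 standing apart together. The groups reuse the same libraries and are not independent.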

How the results depend on the processing

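Of 23 alternatives, Cldn2, Cldn4, Cldn6, Cldn10 and Cldn11 kept their direction and call in all 23, Cldn7 in 22 and Cldn23 in 16. The number of members called higher, 5, was 3 when scaled to Epcam, 7 when scaled to endothelial markers (Cldn3 at 0.619 and Cldn18 added) and 4 to 5 on leaving out single libraries. The number called lower, 1, was 5 when scaled to Epcam, 2 with no filter, with DESeq2, with the GC offset and with the GC offset and replicate block, 4 with limma-voom quality weights, 4 without controls 1 and 4, and 1 to 3 on leaving out single libraries. With the replicate block alone it was also 2, Cldn5 being added (edgeR adjusted p = 0.047, and 0.014 with the GC offset too). Deviations of same-numbered libraries correlated by 0.007, 0.129, -0.123 and 0.134. Other pairs of a control and a mutant-labelled library gave -0.145 to 0.149. So weak a check cannot tell whether the shared number marks a pairing, and the labels state none. The block called 865 genes higher and 371 lower.

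Scaled to Epcam, which moved the median of all genes to -0.626, Cldn3 was at -0.418. Scaled to endothelial markers, which moved it to 0.411, Cldn18 was at 0.280, Cldn5 at 0.020, Cldn12 at 0.288, Cldn8 at 0.175 and Cldn34c1 at 0.368. These scalings split all calls 300 higher and 11511 lower, and 8832 and 109. Without controls 2 and 3, Cldn12 was at 0.083 and Cldn34c1 at 0.105. Cldn34c1 was also at 0.001 by library size only, 0.040 with the GC offset, 0.039 with the GC offset and replicate block, and between -0.144 and 0.054 on leaving out single libraries. With Cdh1 in place of Epcam the Cldn3 log2 ratio was 0.092. On leaving out single libraries the ratio of Cldn18 to Sftpc ran from -0.104 to 0.032, and that of Cldn5 to Pecam1 from -0.049 to 0.227. The cause of these changes was not tested.

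All genes called, 924 higher and 401 lower, were 1336 and 939 with DESeq2, 2790 and 2387 with quality weights, 1103 and 304 by library size only, 3750 and 3338 without controls 1 and 4, 628 and 223 without controls 2 and 3, 1024 and 625 on dropping mutant-labelled library 4 with control 1, and 515 to 1517 and 146 to 1117 on leaving out single libraries. With quality weights the tight junction partners gave 7 higher and 6 lower. Depth limits Cldn6, Cldn2, Cldn11 and Hnf4a in controls. Cldn6, Cldn11 and Hnf4a passed the filter only through the mutant-labelled libraries.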
